A study of Gossypium hirsutum with 3 samples.

Results

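Genes of protein breakdown were followed between fiber initials and whole ovules of upland cotton (Gossypium hirsutum) at 1 day post anthesis (dpa, the days after the flower opened). The array carried 11143 genes, and 28 of them were taken. Their descriptions in the study's table of expressed genes, which held 1038 entries, named ubiquitin, the proteasome, an F-box, a RING domain, a protease, a proteinase or a peptidase. The keywords met 35 descriptions, and 7 of these were set aside because they also named mitochondria, a ribosomal protein or an inhibitor. Of the 28 genes, 16 belonged to the ubiquitin system and 12 were proteases. The study drew up its table from genes that varied at least 2 fold between 1 dpa fiber and either 1 dpa ovules or 10 dpa fiber, together with benchmark genes of known expression. The ratios on these arrays thus helped to choose the members, and they are given here as a description. They carry no test and support no statement on the direction of the group.

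Ubiquitin is a small protein that is joined to other proteins by a chain of enzymes, the last of which is a ubiquitin ligase. Many RING proteins are such ligases, and F-box proteins are the subunits of SCF ligases that choose the protein to be tagged. Tagged proteins are cut up by the proteasome, a barrel-shaped complex, and deubiquitinating enzymes take the tag off again. Proteases such as subtilisins, serine carboxypeptidases and papain-like enzymes work without a tag, mostly in the vacuole or in the cell wall. In plants the ubiquitin system sets the level of many regulators of hormone response and of cell division, and the vacuolar proteases recycle proteins in growing and aging tissue.

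Fiber initials had been shaken from frozen ovules of field grown plants with glass beads. They were set against intact ovules of the same age, which hold the initials together with all other ovule cells. The study's field plants were of the cultivars DES119 and ST4793R, and the labels do not say which was used on each array. They also name total RNA where the extraction protocol and the study's methods name polyribosomal RNA. Each of the 3 arrays held 1 RNA of each tissue in different dyes, so that n = 3 counts arrays. In such bulk samples fewer cells of a type and less RNA per cell cannot be told apart.

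The direction of the arrays was not settled by the deposited records. The dye of each RNA is named by codes beside the spots. In the green channel they read SP2A (array 1), SP1E (array 2) and SP2C (array 3), and in the red channel SP1A, SP2A and SP1F, which makes array 2 the dye swap. The sample labels make array 3 the swap instead, with fiber in green on the other two arrays. Arrays 1 and 2, which by the labels run the same way, had red over green ratios with a correlation of -0.580 across genes, which are not independent replicates, and arrays 1 and 3, which by the labels run opposite ways, had 0.522. All ratios below are therefore SP2 RNA over SP1 RNA by the codes. They read as fiber over ovule if the label of array 1 holds, and every sign turns, with the same sizes and errors, if the labels of arrays 2 and 3 hold. Since SP2A occurs on both arrays 1 and 2, these may share an extract. For scale, the benchmark gene GhFDH, of the FIDDLEHEAD kind that acts in the epidermis, had a log2 ratio of 1.17 ± 0.25 (SE, n = 3). The gene of the fiber transcription factor MYB109 had 1.29 ± 0.27, and both genes were positive on every array. The study reports more RNA of both genes in fiber initials than in ovules, and describes this as matching published expression. Read by these genes, SP2 is the fiber RNA, as the label of array 1 has it. The study drew its report on these genes from the same arrays, so that for them only the published expression is separate. Its RNA blots and PCR are described for other genes and were not used here. The histone H4 gene Contig15160 had -2.26 ± 0.14, and the topoisomerase II gene Contig17288, active in DNA replication, had -3.33 ± 0.18.

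Each of the 28 genes had at least 1 probe above background in both RNAs on all 3 arrays, and all of their probes passed the filter on dim probes. Probe 1 of Contig15675, of Contig15594 and of TMIRS_112_A01.F was not above background in both RNAs on every array. With only probes that were, the means of these genes were -0.22, -1.47 and 1.69. In the SP2 RNA, 9 members were higher and 8 lower by limma's test over all genes (adjusted p under 0.05), against 3.95% of all genes tested called higher and 8.31% called lower. Since the table was chosen on this contrast, nothing is read from these shares. With SP1 RNA on top the counts are 8 higher and 9 lower. By the sample labels limma called 0 members, with 2 at an unadjusted p under 0.05, against 0% of all genes called and 4.86% at that unadjusted p. The ratios spanned -2.94 to 1.51 with a median of 0.03, against 0.04 in all genes tested. On all 3 arrays 13 members were positive and 10 negative, against 20.9% and 23.1% of all genes. The mean was at least 2 fold higher for 5 members and at least 2 fold lower for 7, against 1.74% and 4.75% of all genes. Just past 2 fold stood TMIRS_220_G11.F (1.07) and Contig5090 (-1.07), and just short of it an oligopeptidase B singleton (0.89) and Contig1569 (-0.85).

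**Figure D1:**
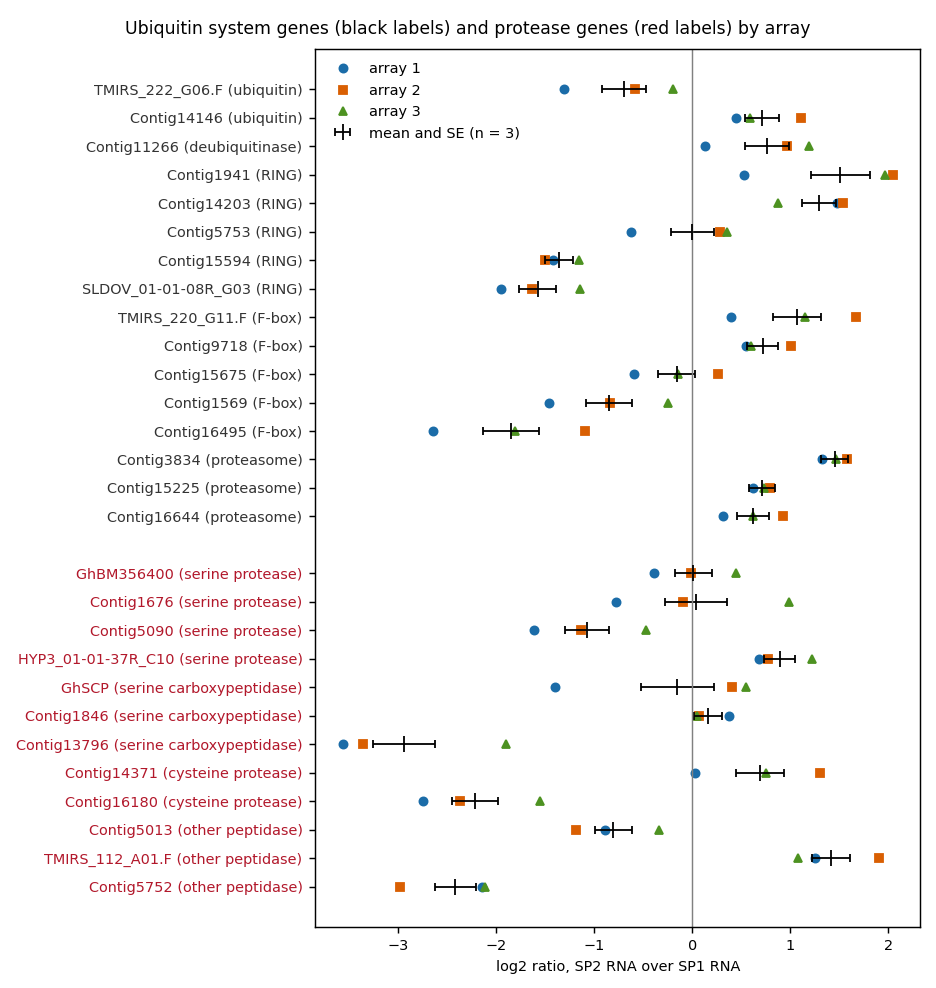
Log2 ratio (x axis, SP2 RNA over SP1 RNA) of the 28 genes (rows, with their role in brackets). Blue circles, orange squares and green triangles are arrays 1, 2 and 3, and the black bars are the mean and its SE (n = 3). The 3 proteasome genes lie right of 0 on every array, and Contig13796, Contig5752 and Contig16180 lie farthest to the left.

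The proteasome was the only role with more than 1 gene in which every member had the same sign on every array. All 3 genes are described as parts of this complex. Contig3834, described as a multicatalytic endopeptidase, an older name of the proteasome, had signals of 9493, 10945 and 8307 in the SP2 RNA on arrays 1, 2 and 3, against 4254, 1767 and 2200 in the SP1 RNA. These are scanner intensities after background subtraction and before dye normalization, so that they show the data behind a ratio but carry the difference between dyes and arrays. On array 3 TMIRS_222_G06.F, Contig15675, Contig1569 and Contig5013 had the higher signal in the SP2 RNA and yet a negative ratio after normalization. After normalization the ratios of Contig3834 were 1.32, 1.58 and 1.47, with a mean of 1.46 ± 0.14 (SE, n = 3; 2.74-fold higher). Each of its 4 probes lay between 1.28 and 1.70. Arrays and probes thus differed little for this gene. Contig15225, a component of the same complex, had ratios of 0.62, 0.79 and 0.73 with a mean of 0.71 ± 0.13. Contig16644, similar to a beta subunit of the wheat proteasome, had ratios of 0.31, 0.93 and 0.62 with a mean of 0.62 ± 0.16, and was not called. It was called higher without array 1 (0.77). Its probes disagreed. Probes 2 and 3 had means of 1.04 and 0.96, and probe 1 had -0.13 with -1.11 on array 1. In the SP2 RNA the signals of Contig15225 were 7381, 11788 and 7800, against 4830, 3061 and 3290 in the SP1 RNA, and those of Contig16644 were 7211, 8788 and 6063 in the SP2 RNA, against 6475, 2396 and 2872 in the SP1 RNA. For all 3 genes the SP2 signal was the higher one on each array.

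RING genes went both ways. Of 5 genes, 2 were higher, 2 were lower and 1 had a mean near 0. Contig1941, a RING finger protein of the C3HC4 type, had the highest mean of all members. Its signals were 394.7, 1203 and 769 in the SP2 RNA, against 252.3, 176.9 and 106.4 in the SP1 RNA. Its ratios were 0.53, 2.05 and 1.96, with a mean of 1.51 ± 0.30 (SE, n = 3; 2.85-fold higher). Array 1 stood well below the others for this gene, on each of its probes. The gene was not called after centring on the median or in the deposited ratios. Contig14203, of the same type, had signals of 1457, 913.4 and 1009 in the SP2 RNA, against 522, 195 and 375.9 in the SP1 RNA. Its ratios of 1.48, 1.54 and 0.87 gave a mean of 1.30 ± 0.18, with array 3 the lowest. Its first probe had a mean of 0.60 and the other probes had means from 1.42 to 1.66.

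The lower RING genes were Contig15594, similar to a RING-H2 protein of rice, and the singleton SLDOV_01-01-08R_G03, similar to a RING protein of the rubber tree. Contig15594 had signals of 135.8, 126.5 and 82.3 in the SP2 RNA, against 434.6, 355.2 and 170.3 in the SP1 RNA. Its ratios of -1.42, -1.50 and -1.16 had a mean of -1.36 ± 0.14 (SE, n = 3; 2.57-fold lower), and the arrays differed by less than for most members. For SLDOV_01-01-08R_G03 the signals were 510.6, 357.1 and 246.2 in the SP2 RNA, against 2153, 757.2 and 404.4 in the SP1 RNA. Its ratios were -1.95, -1.63 and -1.15, with a mean of -1.58 ± 0.18. In both genes the SP1 signal was the higher one on each array and every probe was negative. The fifth gene, Contig5753, whose description joins a RING finger to ankyrin repeats, had -0.63 on array 1 and 0.28 and 0.35 on arrays 2 and 3 (mean 0.00 ± 0.22), so that its sign was not settled by these arrays.

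F-box genes were split as well. TMIRS_220_G11.F, similar to an Arabidopsis F-box protein, had signals of 1688, 3601 and 1398 in the SP2 RNA, against 1341, 669.3 and 459.5 in the SP1 RNA. Its ratios were 0.39, 1.67 and 1.15 with a mean of 1.07 ± 0.24 (SE, n = 3). Contig9718 had 0.55, 1.00 and 0.60 with a mean of 0.72 ± 0.15. Both were higher, and all of their probes were positive. Contig16495 was lower and had the lowest ratio of the ubiquitin system. In the SP2 RNA its signals were 279, 492 and 194.7, against 2119, 767.8 and 648.6 in the SP1 RNA. Its ratios of -2.64, -1.09 and -1.81 had a mean of -1.85 ± 0.28 (3.60-fold lower), with array 2 closest to 0. The gene was not called after centring on the median or in the deposited ratios. Contig1569, similar to the rice F-box protein Fbl2, was negative on each array (-1.46, -0.84 and -0.24, mean -0.85 ± 0.24) and was not called. It was called lower without array 2 (-0.85) and without array 3 (-1.15). Contig15675 had ratios of -0.60, 0.26 and -0.14, and its mean of -0.16 ± 0.19 turned positive without array 1 (0.06).

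Ubiquitin itself and the enzyme that removes it made up the remaining genes of the system. Contig14146, a ubiquitin-like protein, had signals of 3346, 4687 and 4108 in the SP2 RNA, against 2920, 1279 and 2144 in the SP1 RNA. Its ratios were 0.44, 1.11 and 0.59, with a mean of 0.71 ± 0.17 (SE, n = 3). TMIRS_222_G06.F, described as ubiquitin, went the other way with -1.31, -0.58 and -0.20 (mean -0.70 ± 0.22) and was not called. It was called lower without array 3 (-0.95). Ubiquitin genes are near copies of each other, so that probes of TMIRS_222_G06.F may also have bound RNA of other ubiquitin genes. Contig11266, similar to an Arabidopsis ubiquitin-specific protease of the deubiquitinating kind, had 0.14, 0.96 and 1.19 (mean 0.76 ± 0.22). It was positive on each array and was not called, and without array 1 it was (1.08).

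Proteases held the lowest ratios of the group. Contig13796, similar to a serine carboxypeptidase, an enzyme that takes single residues from the end of a protein, had signals of 302.2, 542.8 and 179.5 in the SP2 RNA, against 3861, 3648 and 577.8 in the SP1 RNA. Its ratios were -3.56, -3.36 and -1.90, with a mean of -2.94 ± 0.32 (SE, n = 3; 7.68-fold lower). Array 3 was nearest to 0, and the means of its 4 probes ran from -3.36 to -2.30. The other serine carboxypeptidases did not share this. Contig1846 had 0.37, 0.07 and 0.05 (mean 0.17 ± 0.14), and the benchmark gene GhSCP, called serine protease-like in the study's table and a serine carboxypeptidase in its text, had -1.40 on array 1 against 0.40 and 0.55 on arrays 2 and 3. The mean of GhSCP, -0.15 ± 0.37, was positive without array 1 (0.47), after centring on the median instead of loess (0.19) and in the deposited ratios (0.36). It also had 1 saturated spot in the SP1 RNA.

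Cysteine proteases of the papain kind did not share a clear direction. Contig16180, described as a cysteine endopeptidase, had signals of 1542, 2957 and 1198 in the SP2 RNA, against 10594, 6854 and 2334 in the SP1 RNA. Its ratios were -2.74, -2.36 and -1.55 with a mean of -2.22 ± 0.24 (SE, n = 3; 4.66-fold lower), and its probes ranged from -2.89 to -1.59. Contig14371, similar to a papain-like protease, had 0.03, 1.30 and 0.75 (mean 0.69 ± 0.24) and was not called. Without array 1 this gene was called higher (1.03). It was among the bright genes, with signals of 26903, 41241 and 31601 in the SP2 RNA, against 27017, 6655 and 12619 in the SP1 RNA, and 3 of its spots were saturated in the SP2 RNA. Without saturated spots its mean was 0.81.

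Serine proteases of other kinds had no common direction. The subtilisin-like gene Contig5090 was lower, with signals of 4881, 4513 and 2532 in the SP2 RNA, against 15456, 5022 and 2878 in the SP1 RNA. Its ratios were -1.61, -1.13 and -0.47, with a mean of -1.07 ± 0.23 (SE, n = 3). The gene was not called after centring on the median (-0.78), in the deposited ratios (-0.64) or without array 1 (-0.80). Another subtilisin, Contig1676, had ratios of -0.78, -0.09 and 0.99 (mean 0.04 ± 0.31), the arrays running apart on its probes 2, 3 and 4. The benchmark serine protease gene GhBM356400 had -0.39, -0.01 and 0.44 (mean 0.01 ± 0.19). Neither gene had a settled sign. The oligopeptidase B singleton (clone prefix HYP3, well C10), named by a match to a trypanosome, was higher with 0.68, 0.77 and 1.22 (mean 0.89 ± 0.16), and was positive on all 3 probes.

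Of the peptidases left, Contig5013, similar to the maize Lon protease, an ATP-driven enzyme of organelles, had ratios of -0.89, -1.18 and -0.34 (mean -0.80 ± 0.19; SE, n = 3) on its single probe and was lower. It was not called after centring on the median (-0.69), in the deposited ratios (-0.55), without array 1 (-0.76) or without array 2 (-0.61). Its signals on array 3 were 440.9 in the SP2 RNA and 422.5 in the SP1 RNA. A database match to a distant species is all that names the other 2 genes. TMIRS_112_A01.F, matched to a bacterial peptidyl-dipeptidase, was higher with 1.26, 1.90 and 1.08 (mean 1.41 ± 0.19), and its signals were 677.1, 927.8 and 612.6 in the SP2 RNA, against 258.5, 131.4 and 175.6 in the SP1 RNA. Contig5752, matched to a honeybee protein that resembles a protease of sea stars, was lower with -2.15, -2.98 and -2.12 (mean -2.42 ± 0.20; 5.33-fold lower), and its signals were 5547, 3923 and 2594 in the SP2 RNA, against 26051, 13432 and 8196 in the SP1 RNA. For both genes the signals of the 2 RNAs stood apart in the same direction on each array. Such a match alone does not give a gene a role in proteolysis, and both genes stay counted with the proteases.

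**Figure D2:**
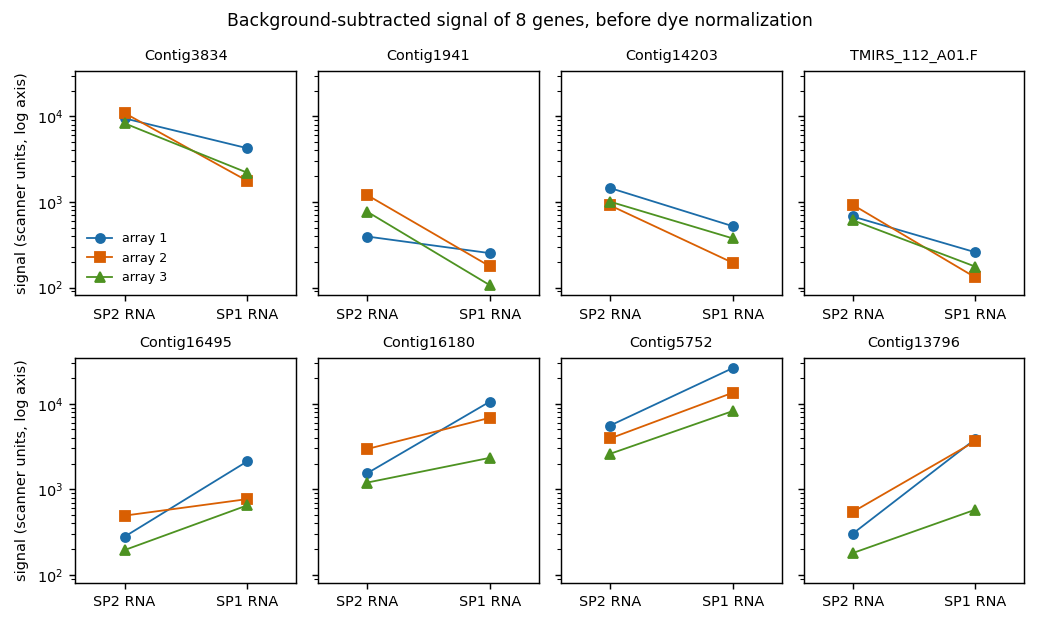
Background-subtracted signal (y axis, scanner units, log scale, before dye normalization) in SP2 RNA and SP1 RNA for 8 genes, with lines joining the 2 RNAs of an array. Contig3834, Contig1941, Contig14203 and TMIRS_112_A01.F fall from left to right on every array, and Contig16495, Contig16180, Contig5752 and Contig13796 climb.

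The ubiquitin system was then set beside the proteases. In the ubiquitin system 7 of 16 genes were higher and 3 lower, and among proteases 2 of 12 were higher and 5 lower, against the 3.95% and 8.31% of all genes given above. The median ratio was 0.67 in the ubiquitin system and -0.07 in the proteases, a difference of 0.74 on the log2 scale. On arrays 1, 2 and 3 the medians were 0.22, 0.86 and 0.59 in the ubiquitin system, against -0.83, -0.05 and 0.25 in the proteases, so that the ubiquitin system had the higher median on each array, by 1.06, 0.91 and 0.35. Both classes overlapped widely, with ranges of -1.85 to 1.51 in the ubiquitin system and -2.94 to 1.41 in the proteases. The difference between the classes was not tested, because the members were chosen on this contrast and are not replicates. In the other tabulated genes, chosen in the same way, the median was 0.20, and 310 of 1008 were called higher and 289 lower. By the labels the difference of the medians was -0.19, of the opposite sign, and with SP1 RNA on top it was -0.74.

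**Figure D3:**
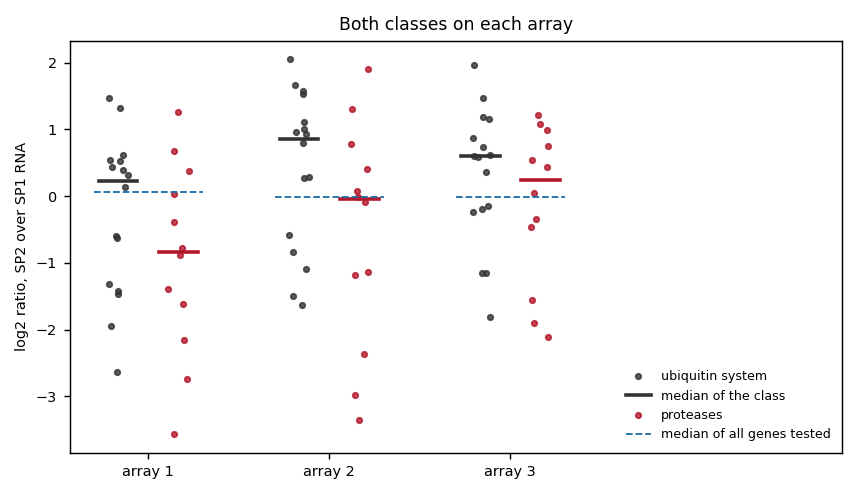
Log2 ratio (y axis, SP2 RNA over SP1 RNA) of the 16 ubiquitin system genes (black points) and the 12 proteases (red points) on each array, with the median of each class as a bar and that of all genes tested as a dashed line. The black bar lies above the red one on each array, by 1.06, 0.91 and 0.35, and the points overlap.

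Array 1 differed from the others for most members. It had the lowest ratio of the 3 arrays for 22 of 28 genes, 14 in the ubiquitin system and 8 among the proteases. Of all genes tested 42.7% had their lowest ratio on array 1, and of the other tabulated genes 68.2%. Leaving out array 1 gave 12 members higher and 6 lower, against 10.1% and 7.92% of all genes. Leaving out array 2 gave 5 and 8, against 2% and 6.97% of all genes, and leaving out array 3 gave 5 and 10, against 2.71% and 9.11%. Calls over all genes thus moved with the array left out as well. The sign of the mean turned for 5 members when an array was left out, namely Contig5753, Contig15675, GhBM356400, Contig1676 and GhSCP. Calls also rested on the normalization. Centring each array on its median instead of loess left 3 members higher and 5 lower, against 0.722% and 2.25% of all genes. The deposited ratios, with all genes at a median of 0.25, left 3 higher and 4 lower, against 0.812% and 1.41% of all genes, so that calls over all genes fell too. Contig14203, Contig3834 and TMIRS_112_A01.F were higher, and Contig15594, Contig13796, Contig16180 and Contig5752 lower, with loess, under both of these normalizations and without any 1 array. With an ordinary test in place of limma's moderated one, 0 members were called, with 11 at an unadjusted p under 0.05, against 0.018% of all genes called and 15.4% at that unadjusted p.

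For 22 of 28 genes all probes had a mean of the same sign, which for Contig5013 with its single probe could not be otherwise. The 6 genes with probes of both signs were Contig5753, Contig15675, Contig16644, GhBM356400, Contig1676 and GhSCP, and all but Contig16644 had a mean between -0.16 and 0.04. In GhSCP both arrays and probes disagreed. Probe 3 had -2.12 on array 1 but 0.75 and 1.21 on arrays 2 and 3, and probe 2 had -1.16, 0.64 and 0.75, while probe 4 was negative on each array (-0.92, -0.18 and -0.32).

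**Figure D4:**
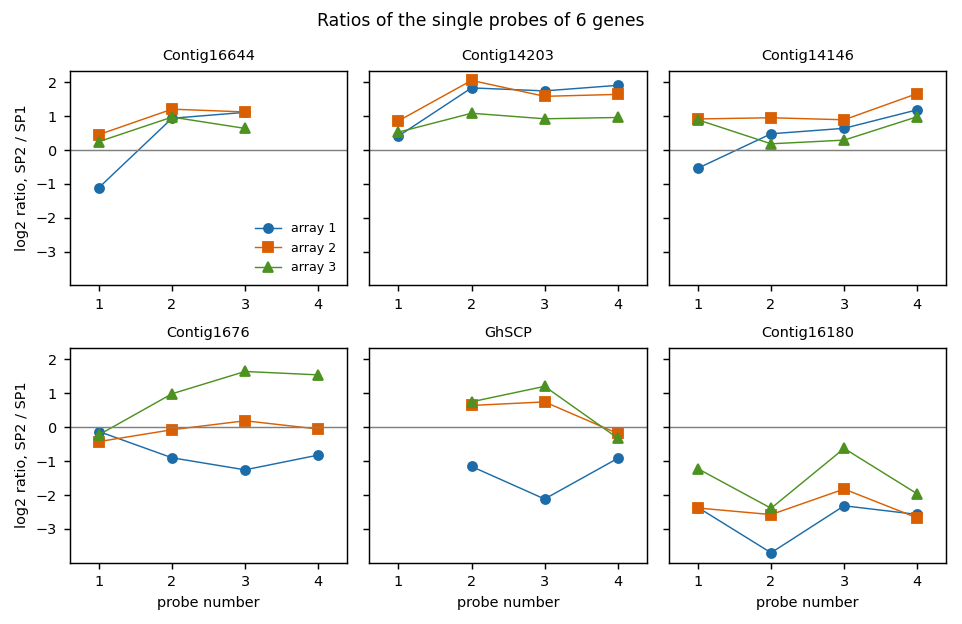
Log2 ratio (y axis, SP2 RNA over SP1 RNA) of each probe, by its number in the probe name (x axis), for 6 genes, with circles, squares and triangles for arrays 1, 2 and 3. Probe 1 of Contig16644 and of Contig14146 is below 0 on array 1 alone (-1.11 and -0.53), and the arrays part on Contig1676 and GhSCP.

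A few genes near the group in function were kept out of it. Of 9 such genes, 4 were higher and 1 lower, against 3.95% and 8.31% of all genes tested. These too came from the study's table, in which 30.8% of the genes other than members were higher and 28.7% lower. TMIRS_097_A01.F (1.25 ± 0.19, SE, n = 3), similar to a fusion of ubiquitin with a ribosomal protein, was higher. So was the putative mitochondrial processing peptidase TMIRS_064_G08.F (1.48 ± 0.16). The others higher were the protease inhibitor-like gene Contig3452 (1.63 ± 0.27) and Contig14170 (0.94 ± 0.21). Contig14170 is described as of the protease inhibitor, seed storage and lipid transfer protein family. The ubiquitin fusion, with 0.77, 1.59 and 1.41 on the arrays, was positive where the ubiquitin gene TMIRS_222_G06.F was negative. Contig15784, a POZ domain protein of a family that includes adaptors of ubiquitin ligases, was lower (-1.40 ± 0.17). Contig3155, TMIRS_107_G05.F and Contig17143 are described as of the same family as Contig14170, and none of them was called. Their means were 0.00, 0.01 and 0.76 ± 0.20. The metacaspase Contig14433, of a family of cysteine proteases linked to cell death, had 0.48 ± 0.20 and was not called.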

How the data were processed

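Green and red intensities of each spot and of the pixels around it were deposited as Agilent Feature Extraction gave them, without dye normalization, beside a deposited flag of other kind that says whether green stood well above background. The authors' log2 ratios in the series table equalled background-subtracted red over green at 42034 of 42034 gene spots (within 1e-08), without centring or a dye turn. Median signals on arrays 1, 2 and 3 were 249, 269.9 and 182.2 in the SP2 RNA, against 310.5, 213.2 and 130.5 in the SP1 RNA.

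Here limma 3.58.1 in R 4.3.3 was used, with normexp (offset 50) and then loess fitted to gene spots. Values of spots were averaged per probe, then per gene. Probes had to exceed background in either dye on at least 2 arrays (red by 2.6 robust SD over the median negative control), which left 11081 of 11143 genes. Ratios, turned to SP2 over SP1 RNA by the codes, were tested against 0 over the 3 arrays with lmFit and eBayes and adjusted by Benjamini-Hochberg, with a threshold of 0.05. The SE is the moderated one. Signals from 65000 were treated as saturated. The fit was tested on simulated data with independent arrays of known direction, which cannot test the orientation or a shared extract.

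Members and lists were chosen with earlier results of these data known, and all 28 members are named. Alternatives were other normalizations and filters, the median of probes, the orientation by the labels, an ordinary test and each array left out. The study states separate harvests, which the codes leave uncertain, so that p-values may partly measure technical spread.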

Additional observations from a re-analysis of the deposited data

How the results depend on the processing

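The 3 arrays limit precision, and leave the calls dependent on moderation and on the normalization. The counts of members higher and lower, 9 and 8, were 3 and 5 after centring on the median, 3 and 4 in the deposited ratios, 0 and 0 with the ordinary test, and 0 and 0 by the labels. Of all 11081 genes 1359 were called, against 329, 246, 2 and 0 under these settings, and 994 to 1999 with 1 array left out. Members called with 1 array left out ranged from 5 to 12 higher and from 6 to 10 lower. The median of the ubiquitin system, 0.67, was 1.05 with the deposited ratios, -0.33 by the labels and -0.67 with SP1 RNA on top, and from 0.49 to 0.77 with 1 array left out. The median of the proteases, -0.07, was 0.11 after centring on the median, 0.31 in the deposited ratios and -0.14 by the labels. With the median of the probes it was 0.05, so that its sign was not settled. It ranged from -0.47 to 0.14, and the difference between the classes from 0.63 to 1.05, with 1 array left out. By the labels this difference was -0.19, and with SP1 RNA on top -0.74. These counts moved by less than 1.5 times, and the medians by less than the spread between arrays, under the other settings of the processing. Those were no background subtraction, other filters on dim probes, the median of the probes and saturated spots left out. The medians did likewise when Contig11266 was counted with the proteases. With TMIRS_112_A01.F and Contig5752 left out, 8 members were higher and 7 lower. The median of the proteases could not change then, as these genes lay on either side of it. Among single members, 28 of 28 moved by less than their own spread between arrays with no background subtraction, the median of the probes or without saturated spots. They also did with only probes above background in both dyes on all 3 arrays. After centring on the median 25 did, and 19 did in the deposited ratios. Leaving out 1 of 3 arrays cannot move a mean beyond the spread of those arrays, so that it is no check here. Without the filter no member's ratio could move, since all their probes had passed it.

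By the labels, the ratio of fiber over ovule had the opposite sign for 16 of the members called. It was -0.42 for Contig14146, -1.16 for Contig1941, -0.31 for Contig14203, 0.41 for Contig15594, 0.28 for SLDOV_01-01-08R_G03, -0.81 for TMIRS_220_G11.F, -0.35 for Contig9718, 0.0875 for Contig16495, -0.57 for Contig3834, -0.30 for Contig15225, -0.44 for the oligopeptidase B singleton, 0.56 for Contig13796, 0.39 for Contig16180, 0.21 for Contig5013, -0.58 for TMIRS_112_A01.F and 0.98 for Contig5752. By construction the labels turn arrays 2 and 3 and leave array 1. Single members were not refitted with SP1 RNA on top, since this turns each sign and leaves each size. Each ratio is taken within an array, so that every fit is already paired by array.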

Other observations

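Among the 19 members measured by 4 probes, the probe numbered 1 had the mean ratio closest to 0 in 13. In all genes with 4 probes it did in 2913 of 7418 (39.3%). Among called genes with 4 probes it did in 9 of 12 members (75%) and in 560 of 980 of all genes (57.1%). Where on the transcript a probe lies was not used here.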
